A study of Rattus norvegicus and Mus musculus with 74 samples.

Results

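The clustered protocadherin genes encode cell-surface adhesion proteins of neurons and lie in 3 neighbouring clusters, alpha, beta and gamma, on chromosome 18 of both rat and mouse. Histone marks over these clusters are described here in cortex from 2 animal models. The members were every region of the deposited tables whose gene list held a symbol of the alpha, beta or gamma cluster, each region counted once. They numbered 44 of 132934 regions in all. In rat there were 18 of 72824 regions, with 9 alpha, 4 beta and 5 gamma regions, and they listed 51 genes (14 alpha, 21 beta and 16 gamma). In mouse there were 26 of 60110 regions, with 16 alpha, 7 beta and 3 gamma regions, and they listed 58 genes (14 alpha, 22 beta and 22 gamma). Regions are numbered here along the chromosome within each cluster.

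The marks were H3K4me3 and H3K9Ac, which lie at active promoters, H3K27me3, the Polycomb mark, and H3K9me3, a mark of heterochromatin. Rats of the Sprague-Dawley strain formed 3 groups: animals exposed to valproate (VPA) before birth and given TAK-418, VPA-exposed animals given vehicle, and healthy controls given vehicle. Mice of the C57BL/6J strain also formed 3 groups: animals given TAK-418 after prenatal exposure to poly I:C (a synthetic RNA that mimics a viral infection of the mother), poly I:C-exposed animals given vehicle, and healthy controls given vehicle. TAK-418 inhibits LSD1 (gene Kdm1a), an enzyme that removes methyl groups from H3K4. No group was healthy and given TAK-418, and the labels give no age. Each group had 3 libraries per mark, 72 ChIP libraries among 74 samples. Nothing in the labels says whether libraries of a group are from separate animals, and the p-values therefore measure only the spread between these libraries, which may be technical. Cortex mixes many cell types, and a mark on fewer cells cannot be told apart from less of it per cell.

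Each neuron expresses its own mixture of protocadherin isoforms, which gives it a surface identity used in self-avoidance of its branches. A variable-type gene of the alpha or gamma cluster starts at its own variable exon, which is joined to shared constant exons, and a beta gene is a lone exon. The promoter that is used is reached by CTCF and cohesin and is free of DNA methylation, while the silent variable promoters lie in H3K9me3 chromatin laid down by Setdb1 in mouse neurons. The C-type genes, Pcdhac1 and Pcdhac2 at the end of alpha and Pcdhgc3, Pcdhgc4 and Pcdhgc5 at the end of gamma, are read more broadly and not by this choice. In mouse, Pcdhac2 is needed for the spacing of serotonergic axons and Pcdhgc4 for the survival of interneurons.

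The regions differed widely in size, because the tables merge neighbouring intervals. Rat alpha 1 (rn5, chromosome 18, 29650200 to 29765599) ran for 115399 bp, held 18 CpG islands and covered the starts of the 12 genes Pcdha2 to Pcdha13. Rat beta 4 (30179600 to 30310399, 130799 bp) covered 13 starts, and rat gamma 3 (30507200 to 30611999, 104799 bp) covered 13 starts and 20 CpG islands. The C-type genes had regions of their own: rat alpha 5 (29808600 to 29813199) at the start of Pcdhac1, rat alpha 7 (29879000 to 29888999) at the start of Pcdhac2, and rat gamma 5 (30641800 to 30678999) at the starts of Pcdhgc3 and Pcdhgc5. Mouse regions (mm10, chromosome 18) were laid out alike: beta 7 (37446400 to 37546999, 100599 bp) and gamma 2 (37666000 to 37778199, 112199 bp, 18 starts) over variable genes, alpha 12 (37088000 to 37093199) at Pcdhac1, alpha 15 (37140200 to 37151399) at Pcdhac2 and gamma 3 (37800400 to 37859599) at Pcdhgc3, Pcdhgc4 and Pcdhgc5. Genes in a shared region have 1 value between them, so a value of gamma 2 cannot be given to any of its genes. Rat gamma 5 also listed Diaph1, mouse alpha 15 also listed Gm10544, mouse gamma 1 also listed Slc25a2 and Taf7, and mouse gamma 3 also listed Diap1.

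Depth is unknown, because the tables hold a signal and no read counts. The median signal over the regions tested differed 2.15 to 3.96 fold between the lowest and the highest of the 9 libraries of a mark and species. In mouse H3K9me3 the libraries stood far apart: TAK-418 libraries had 21011, 284 and 15917 called intervals, vehicle libraries 446, 251 and 24761, and control libraries 32258, 8395 and 4460. The labelled cortex was read against marker genes by their percentile among all regions, each gene at the region listing it with the highest mean signal. Inhibitory neuron genes (Gad1, Gad2, Slc32a1) averaged percentile 85.4 for H3K4me3 and 83.5 for H3K9Ac in control rats, and 85.1 and 81.4 in control mice. Astrocyte genes averaged 85.7 and 85.9 in control rats and 83.3 and 81.5 in control mice. Microglial genes averaged 85.0 and 85.2 in rats and 82.3 and 82.2 in mice. Rat muscle genes averaged 89.0 and 92.8, with Myh4 not listed with a region, and mouse muscle genes 63.3 and 76.8. Genes of the striatum averaged 82.8 and 80.3 in control rats, and in control mice the only listed gene of the choroid plexus list had 85.2 and 88.9 and that of the liver list 82.6 and 85.7. The inhibitory neuron genes also averaged percentile 99.6 for H3K27me3 in control rats and 99.5 in control mice. Excitatory neuron genes averaged 90.1 for H3K4me3 and 94.0 for H3K9Ac in control rats, and 86.3 and 87.9 in control mice. Choroid plexus genes averaged 58.7 and 66.4 in control rats, and liver genes 61.0 and 65.1, below the cortical lists. Rat muscle genes stood among the cortical lists. The percentiles therefore do not separate cortex from all other tissues, and the part of other cell types in the results was not tested.

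In control cortex the regions holding member starts were of 2 kinds, and regions without a start are described further below. Regions at variable-type starts were high in H3K9me3 among all regions, and regions at C-type starts were lower in H3K9me3 and higher in H3K4me3 than these. In control rats, the 7 variable-start regions had a mean H3K9me3 signal of 3.35 to 10.3 (median 5.66), at percentiles 93.0 to 99.6 of all rat regions. The 3 C-type regions had 1.48 to 1.86 (median 1.56), at percentiles 26.8 to 54.7. In control mice, the 12 variable-start regions had 5.43 to 10.2 (median 6.24), at percentiles 97.4 to 99.9, and the 3 C-type regions 1.96 to 1.99, at percentiles 32.4 to 35.1. The ranges of both kinds did not overlap in either species. The mouse levels rest largely on control library 1: without it the variable-start regions had 3.42 to 6.12 (median 3.95) and the C-type regions 1.89 to 2.06, and gamma 2, the highest, had 18.2 in that library against 6.88 and 5.35 in the others (mean 10.2, SD 7.04). Intervals of H3K9me3 were called in all 9 libraries in each of the 7 rat variable-start regions and in 5 of the 12 mouse ones.

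In H3K4me3 the order was the other one. The C-type regions had a mean signal of 9.76 to 21.9 in control rats, at percentiles 88.7 to 95.9, and 10.9 to 23.7 in control mice, at percentiles 90.9 to 99.3. Variable-start regions had 1.08 to 2.75 in control rats (percentiles 42.0 to 81.0, median 78.0) and 1.43 to 5.90 in control mice (percentiles 41.3 to 84.4, median 76.3). The 5.90 is that of mouse gamma 1, which also lists Slc25a2 and Taf7. The region of Pcdhac2 was the highest member in both species, at 21.9 ± 5.28 in rats and 23.7 ± 10.9 in mice (SD, n = 3). A mean over a region above 100 kb holds both the promoters and the sequence between them, so a low value there does not show that no promoter in it is marked.

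H3K9Ac, the acetylation at active starts, followed H3K4me3. C-type regions had 5.66 to 11.9 in control rats and 6.10 to 13.5 in control mice, while variable-start regions had 1.07 to 1.69 and 1.40 to 3.16. H3K27me3 had a median of 1.69 over the members in control rats, against 1.60 over all rat regions, and 1.71 in control mice, against 2.10 over all mouse regions. Variable-start regions had 1.38 to 1.93 in control rats and 1.65 to 3.50 in control mice. C-type regions had 2.22 to 3.88 in control rats (percentiles 63.6 to 89.6) and 2.35 to 2.67 in control mice (percentiles 59.0 to 66.0). The highest H3K27me3 in rats was at Pcdhac2 (3.88 ± 1.25) and in mice at gamma 1 (3.50 ± 0.443), at percentile 79.2. Mouse gamma 1 holds the start of Pcdhga1 but also lists Slc25a2 and Taf7, so its value cannot be given to Pcdhga1.

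**Figure D1:**
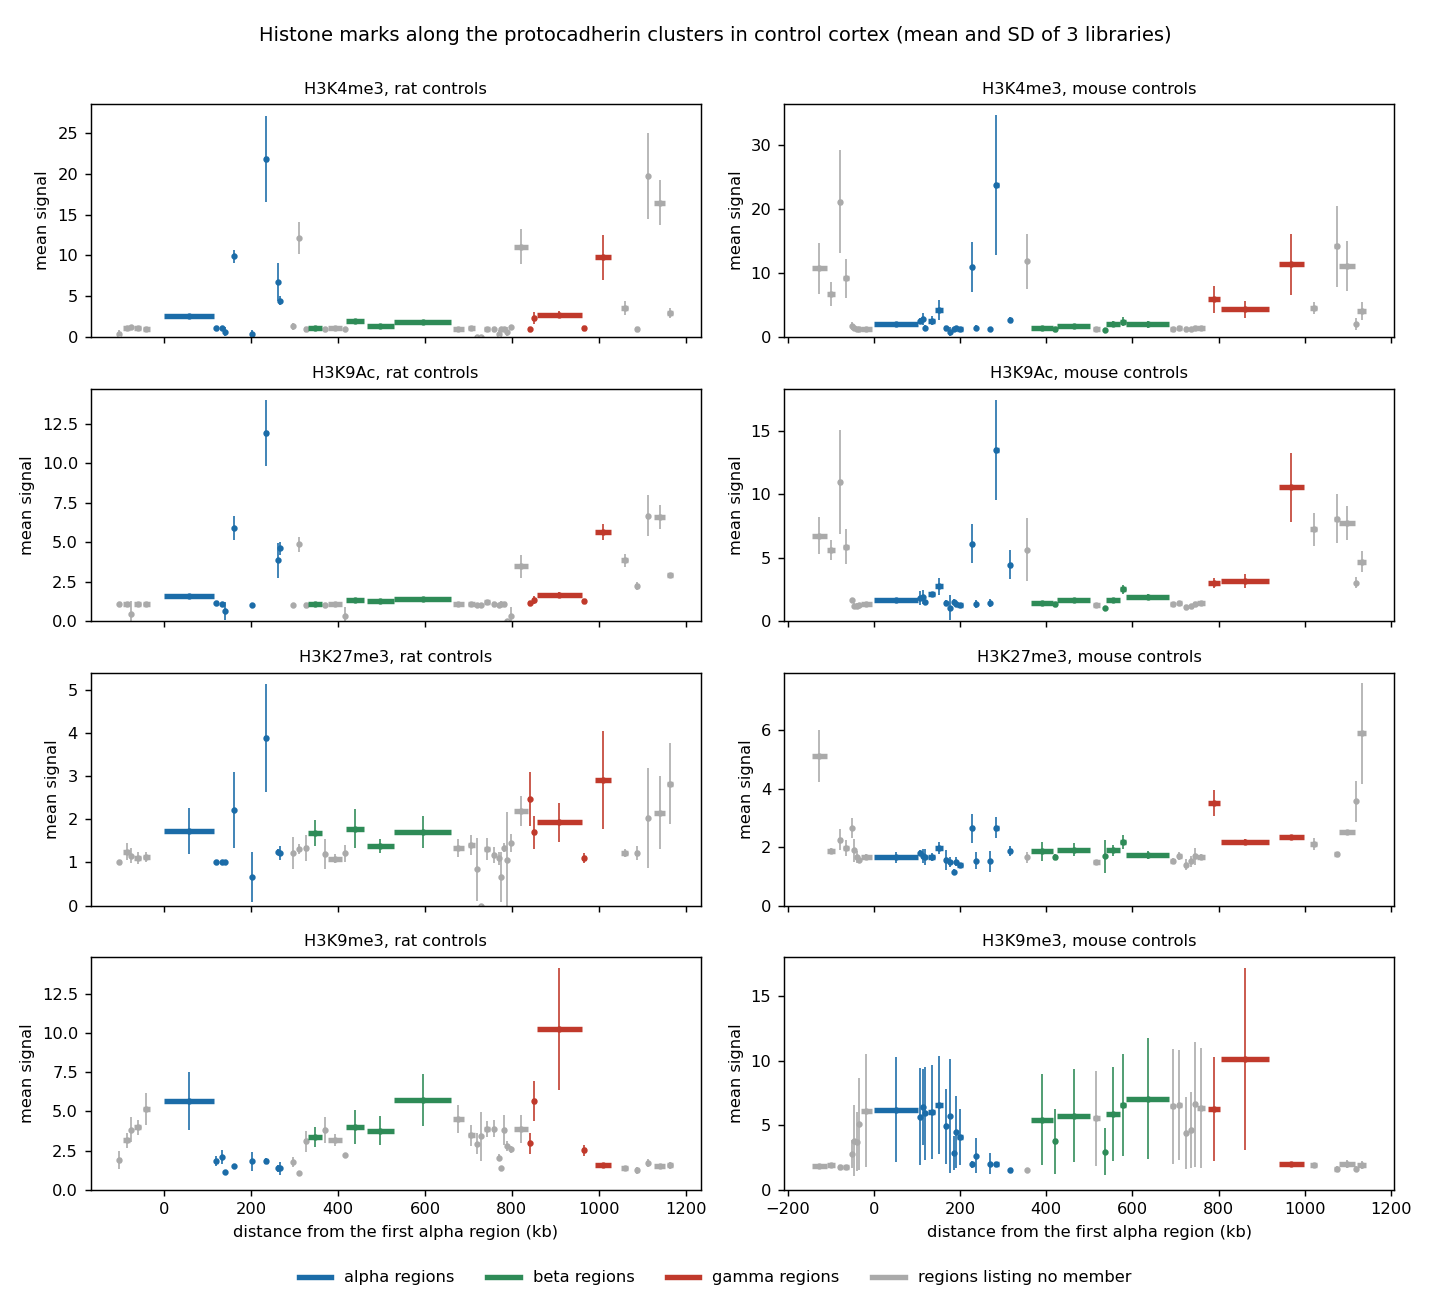
Mean signal of the 4 marks (y axes) against distance from the first alpha region in kb (x axes) in rat and mouse controls; horizontal bars are regions, vertical bars the SD of 3 libraries, and grey bars regions listing no member. Among member regions, H3K4me3 and H3K9Ac peak at those of Pcdhac1, Pcdhac2 and the gamma C-type genes, and rat H3K9me3 is highest over gamma 3, at 10.3.

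Most regions with no member start were low in H3K4me3, with a median of 1.05 in control rats and 1.25 in control mice, against 1.93 and 2.46 at variable starts. Rat alpha 8 (29909400 to 29912399) and alpha 9 (29913200 to 29917599), which lie inside the alpha genes past the start of Pcdhac2, had H3K4me3 of 6.77 ± 2.31 and 4.44 ± 0.540 and H3K9Ac of 3.86 ± 1.12 and 4.63 ± 0.411 in control rats. The other 6 rat regions without a start had H3K4me3 of at most 1.12. In mice, alpha 16 (37174400 to 37181799) lies at the like place and had H3K9Ac of 4.46 ± 1.16 and H3K9me3 of 1.50. Its H3K4me3 of 2.66 (percentile 77.7) lay within the range of the variable-start regions. For H3K9me3, regions without a start had 1.12 to 2.96 in control rats (median 1.82), below all variable-start regions. In control mice they had 1.50 to 5.91 (median 3.75, percentiles 5.05 to 98.8). Mouse alpha 4 (5.91) and alpha 8 (5.71) lay within the range of the variable-start regions, so high H3K9me3 was not limited to starts.

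Across the member regions, Spearman's rho between H3K4me3 and H3K9Ac control means was 0.98 in rat (n = 18 regions) and 0.94 in mouse (n = 26), against 0.85 and 0.92 over all regions. Between H3K4me3 and H3K9me3 it was -0.04 and 0.14, against -0.34 and -0.58 over all regions. H3K9me3 was higher in longer regions among the members, with rho 0.86 in rat and 0.48 in mouse, while over all regions the rho was -0.13 and -0.28. These values share libraries and overlap in genes, and they describe the regions only.

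**Figure D2:**
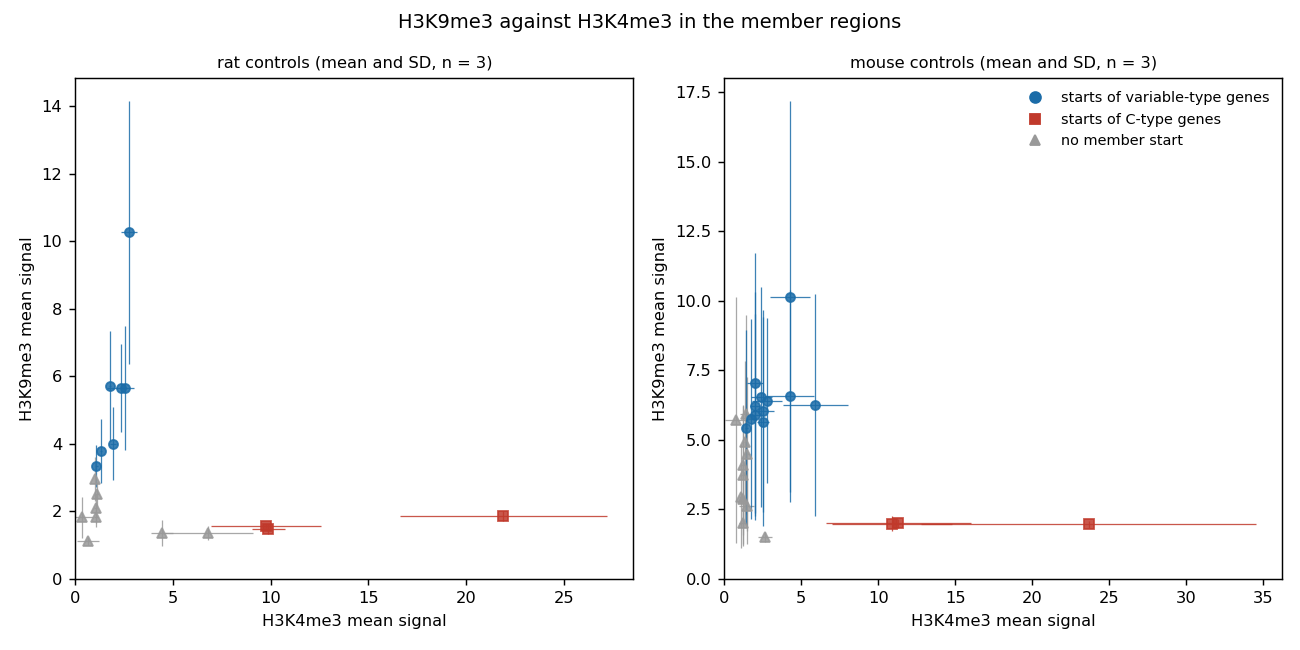
H3K9me3 mean signal (y axis) against H3K4me3 mean signal (x axis) of each member region in controls, with the SD of 3 libraries; circles hold starts of variable-type genes, squares starts of C-type genes and triangles no member start. Variable-start regions rise along the H3K9me3 axis up to 10.3 in rat and 10.2 in mouse, and C-type regions spread along the H3K4me3 axis at H3K9me3 values under 2.

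The H3K9me3 domain was not limited to the genes. In control rats the 5 regions before alpha had 1.92 to 5.15 and the 12 between beta and gamma 1.38 to 4.51, and in control mice the 6 between beta and gamma had 4.40 to 6.61. The 5 regions after gamma had 1.24 to 1.69 in rats and 1.61 to 1.99 in mice, the level of the C-type regions at the end of gamma.

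Contrast between both kinds of region varied by library. The ratio of H3K9me3 in rat gamma 3, over variable starts, to that in rat gamma 5, at C-type starts, was 10.9, 6.23 and 7.12 in VPA TAK-418 libraries, 10.2, 10.5 and 8.56 in VPA vehicle libraries, and 3.80, 7.82 and 7.99 in control libraries. All vehicle values lay above all control values, and the TAK-418 values overlapped both. Called intervals differed too: 29883, 17530 and 19229 in TAK-418 libraries, 24812, 28518 and 23359 in vehicle libraries, and 7704, 15861 and 15533 in control libraries. The lowest ratio came from the library with 7704. A link of the ratio to the number of intervals was not tested, and other pairs of regions were not counted. In mouse, the ratio of gamma 2 to gamma 3 was 6.24, 1.79 and 5.44 in poly I:C TAK-418 libraries, 1.70, 1.69 and 7.80 in poly I:C vehicle libraries, and 8.41, 3.52 and 2.88 in control libraries. The mouse groups overlapped, and the 3 lowest ratios came from the 3 libraries with the fewest called intervals.

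Group differences were tested with limma on log2(mean signal + 1) over all regions of a species with a called interval in at least 3 of the 9 libraries of the mark. Of the 18 rat members, this filter kept 9 in H3K4me3, 5 in H3K9Ac, 4 in H3K27me3 and 11 in H3K9me3. Of the 26 mouse members, it kept 9 in H3K4me3, 6 in H3K9Ac, 1 in H3K27me3 and 18 in H3K9me3. A region was called at a Benjamini-Hochberg adjusted p under 0.05 over all regions tested, with the values as deposited. Each fit was repeated after median centring, in which the median of each library over the regions tested was subtracted. The contrasts of a mark share the same control or vehicle libraries.

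H3K9me3 over the rat clusters was higher in VPA-exposed vehicle animals than in controls, as it was over most of the regions tested. Of 11 member regions tested, 8 rose and 0 fell, where 56.2% of the 26084 regions tested were called higher. The median change was 0.65 on the log2 scale for members and 0.50 for all regions. Rat gamma 3, which covers the variable gamma genes, had 23.1, 13.4 and 12.2 in VPA TAK-418 libraries, 18.4, 20.8 and 15.5 in VPA vehicle libraries and 5.78, 12.1 and 12.9 in control libraries. All vehicle libraries lay above all controls, while TAK-418 libraries overlapped both groups. The change in vehicle animals against controls was 0.83 (SE 0.37, adjusted p 0.0450).

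Rat gamma 2 had 14.1, 7.83 and 7.73 in VPA TAK-418 libraries, 10.1, 13.0 and 8.50 in VPA vehicle libraries and 4.16, 6.25 and 6.56 in control libraries. Neither exposed group overlapped the controls. Its change in vehicle animals against controls was 0.79 (SE 0.34, adjusted p 0.0436). Rat beta 3 had 8.84, 4.94 and 4.68 in VPA TAK-418 libraries, 6.53, 7.72 and 5.71 in VPA vehicle libraries and 2.69, 4.24 and 4.40 in control libraries, again without overlap of either exposed group with the controls, and changed by 0.69 in vehicle animals against controls (SE 0.29, adjusted p 0.0412). Rat alpha 1, beta 2 and beta 4 did not pass (adjusted p 0.0750, 0.0611 and 0.0606). Alpha 1 changed by 0.65 in vehicle animals against controls. It had 11.9, 7.04 and 6.47 in TAK-418 libraries, 9.21, 10.5 and 7.85 in vehicle libraries and 3.56, 6.49 and 6.94 in control libraries.

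The whole mark moved with these members, and its library medians also separated both exposed groups from the controls. The median H3K9me3 over all regions tested was 4.83, 3.11 and 2.97 in VPA TAK-418 libraries, 3.44, 4.29 and 3.24 in VPA vehicle libraries and 2.08, 2.38 and 2.40 in control libraries. After median centring 0 members were called (0% of all regions), their median change was 0.15, and quantile normalization also called 0. The count of 8 was 0 without vehicle library 1 or 2 or without any 1 of the 3 control libraries, and 3 without vehicle library 3.

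**Figure D3:**
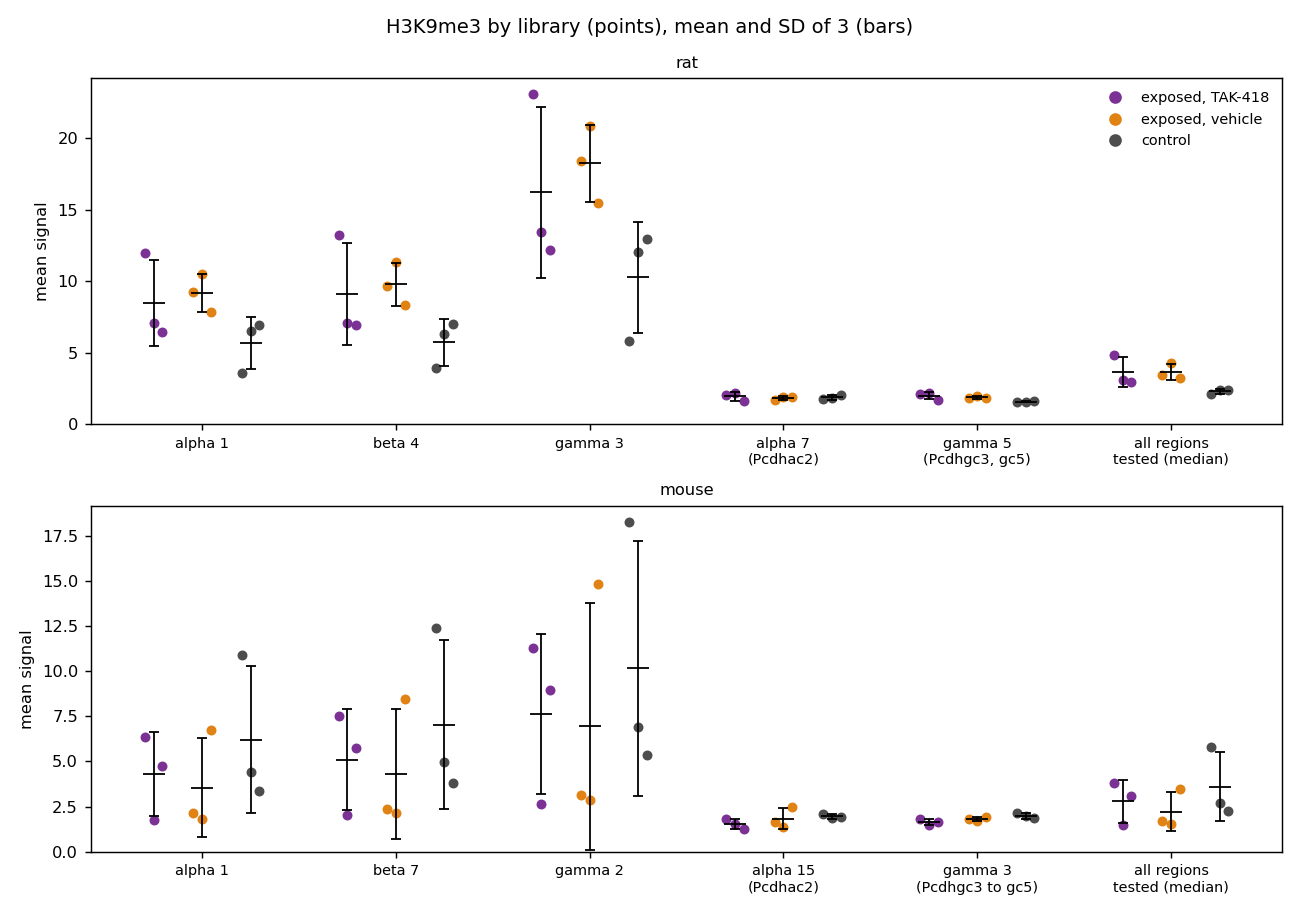
H3K9me3 mean signal (y axis) by library for variable-start regions, C-type regions and the median of all regions tested; points are libraries in the order TAK-418, vehicle and control, and bars give the mean and SD of 3. Rat gamma 3 reaches 15.5 to 20.8 in vehicle animals against 5.78 to 12.9 in controls, and mouse values spread widely within every group.

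Treated rats were also above controls in H3K9me3. In VPA TAK-418 against control, 3 of 11 members rose, where 39.5% of all regions were called higher, with a median change of 0.56 for members and 0.48 for all regions. All 3 hold no start and lie past the variable starts of their cluster. Their distances from the nearest member start were 35862 bp (alpha 2), 48762 bp (alpha 3) and 9517 bp (gamma 4). Alpha 2 had 5.33, 2.71 and 3.30 in TAK-418 libraries, 2.95, 4.42 and 2.85 in vehicle libraries and 2.10, 1.89 and 1.51 in control libraries, so that no exposed library overlapped a control, and changed by 0.72 in TAK-418 animals against controls (SE 0.21, adjusted p 0.0186). Gamma 4 (0.63, SE 0.24, adjusted p 0.0372) had 6.70, 3.36 and 3.70 in TAK-418 libraries, 3.77, 5.13 and 4.32 in vehicle libraries and 2.09, 2.72 and 2.71 in control libraries. Alpha 3 (0.51, SE 0.21, adjusted p 0.0446) had 4.49, 3.04 and 2.80 in TAK-418 libraries, 3.18, 4.00 and 3.40 in vehicle libraries and 1.69, 2.55 and 2.03 in control libraries. In both, every exposed library exceeded every control, as did the library medians of all regions tested. After median centring 0 members were called (0.00383% of all regions). The count of 3 was 0 without TAK-418 library 1 or any 1 control library, 1 without vehicle library 1 or 3, and 5 without TAK-418 library 3.

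Between VPA TAK-418 and VPA vehicle rats, 0 of 11 members were called for H3K9me3 (0% of all regions), with a median change of -0.11 for members and -0.03 for all regions. An unadjusted p under 0.05 was reached by 128 regions and 0 members. After median centring there were again 0 calls (0%). The C-type regions had no called interval in any of the 9 libraries and were not tested: Pcdhac2 (alpha 7) had 2.06, 2.17 and 1.59 in TAK-418 libraries, 1.69, 1.89 and 1.87 in vehicle libraries and 1.73, 1.82 and 2.03 in control libraries, which overlap. At the gamma C-type genes H3K9me3 was 2.13, 2.15 and 1.71 in TAK-418 libraries, 1.81, 1.99 and 1.81 in vehicle libraries and 1.52, 1.54 and 1.62 in control libraries, with both exposed groups above the controls.

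In rats the C-type regions had their highest mean H3K4me3 in treated animals, though TAK-418 against vehicle called no member. A link to LSD1, which demethylates the precursor forms of this mark, was not tested. Against controls, VPA TAK-418 animals had 5 of 9 member regions called, all higher (alpha 1, alpha 5, alpha 7, gamma 3 and gamma 5), where 72.8% of 14296 regions were called higher. The median change was 0.36 for members and 0.58 for all regions. Pcdhac2 (alpha 7) had 48.4, 33.7 and 43.9 in TAK-418 libraries, 32.8, 36.5 and 34.4 in vehicle libraries and 16.4, 26.9 and 22.3 in control libraries. No exposed library overlapped a control, and the change in TAK-418 animals against controls was 0.92 (SE 0.25, adjusted p 0.00227), at percentile 95.3 of the changes of all regions.

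The other C-type regions stood nearer the median of all regions. The gamma C-type region had 18.9, 12.7 and 17.4 in TAK-418 libraries, 13.1, 13.7 and 14.0 in vehicle libraries and 7.16, 12.7 and 9.39 in control libraries, with the lowest TAK-418 and highest control libraries about equal. Its change in TAK-418 animals against controls was 0.71 (SE 0.22, adjusted p 0.00689). Pcdhac1 (alpha 5) had 16.9, 12.5 and 20.0 in TAK-418 libraries, 13.4, 15.5 and 12.9 in vehicle libraries and 10.9, 9.38 and 9.40 in control libraries, without overlap of the exposed groups with the controls, and changed by 0.66 (SE 0.22, adjusted p 0.00980). The variable-start region gamma 3 had 3.95, 3.14 and 4.44 in TAK-418 libraries, 3.29, 3.52 and 3.14 in vehicle libraries and 2.28, 2.96 and 3.01 in control libraries, without overlap of the exposed groups with the controls, and changed by 0.36 in TAK-418 animals against controls (SE 0.16, adjusted p 0.0311).

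Centring removed the calls. The median H3K4me3 over all regions tested was 20.3, 14.3 and 20.7 in TAK-418 libraries, 15.2, 16.1 and 15.3 in vehicle libraries and 9.60, 13.6 and 11.7 in control libraries. These medians of exposed and control libraries did not overlap either. After median centring 0 members were called (0% of all regions) and their median change was -0.25, with 3 of 9 members above 0. The count of 5 was 1 without TAK-418 library 1, 2 without TAK-418 library 3 and 2 without control library 1.

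The 2 other rat H3K4me3 contrasts called no member. In VPA vehicle against control, 0 of 9 members passed, where 1.64% of all regions did, and 3 members and 4975 regions had an unadjusted p under 0.05. All 9 member changes were above 0, with a median of 0.18 for members and 0.37 for all regions, and Pcdhac2 had the smallest p (0.66, SE 0.25, adjusted p 0.0878). Without TAK-418 library 2 the count was 1, and without control library 2 it was 2. In VPA TAK-418 against VPA vehicle, 0 of 9 passed, where 0.224% of all regions did, with 0 members and 1083 regions under an unadjusted p of 0.05. The median change was 0.21 for members and 0.20 for all regions, and 8 of 9 members were above 0. After median centring both contrasts called 0 members (0% of all regions).

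H3K9Ac at the rat C-type genes was higher in VPA-exposed vehicle animals than in controls. Of 5 member regions tested, 3 rose, the regions of Pcdhac1, Pcdhac2 and the gamma C-type genes, where 90.8% of 17679 regions were called higher. The median change was 0.85 for members and 0.78 for all regions. Pcdhac2 (alpha 7) had 14.2, 17.6 and 12.5 in VPA TAK-418 libraries, 26.0, 28.7 and 17.8 in VPA vehicle libraries and 14.1, 9.97 and 11.7 in control libraries. Every vehicle library exceeded every library of the other groups, and TAK-418 and control libraries overlapped. The change in vehicle animals against controls was 0.95 (SE 0.26, adjusted p 9.26e-04).

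The gamma C-type region had 8.73, 9.80 and 6.63 in TAK-418 libraries, 13.0, 15.1 and 7.46 in vehicle libraries and 6.24, 5.47 and 5.27 in control libraries, with neither exposed group overlapping the controls. It changed by 0.90 in vehicle animals against controls (SE 0.25, adjusted p 0.00130). Pcdhac1 (alpha 5) had 8.94, 11.0 and 6.30 in TAK-418 libraries, 14.3, 13.1 and 7.77 in vehicle libraries and 5.32, 6.77 and 5.65 in control libraries, with vehicle but not TAK-418 libraries all above the controls, and changed by 0.85 in vehicle animals against controls (SE 0.25, adjusted p 0.00208). Alpha 9, inside the alpha genes, had 5.36, 5.74 and 4.52 in TAK-418 libraries, 7.87, 8.11 and 3.71 in vehicle libraries and 4.80, 4.16 and 4.92 in control libraries, and the vehicle libraries spanned both other groups.

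Library medians of H3K9Ac were 6.63, 7.27 and 5.36 in TAK-418 animals, 9.92, 11.0 and 6.02 in vehicle animals and 5.13, 4.32 and 4.56 in controls. Medians of both exposed groups lay above those of the controls. After median centring the 3 C-type regions lost their calls, and 1 member was called lower in vehicle animals against controls, where 12.4% of all regions were called lower. It was alpha 9, with a centred change of -0.41 (SE 0.08, adjusted p 0.0167), while its change as deposited had the opposite sign, 0.37 (adjusted p 0.148). That call was absent without vehicle library 1 or 2 or control library 2 or 3, and 2 members were called without control library 1. As deposited, 5 members were called without vehicle library 3.

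**Figure D4:**
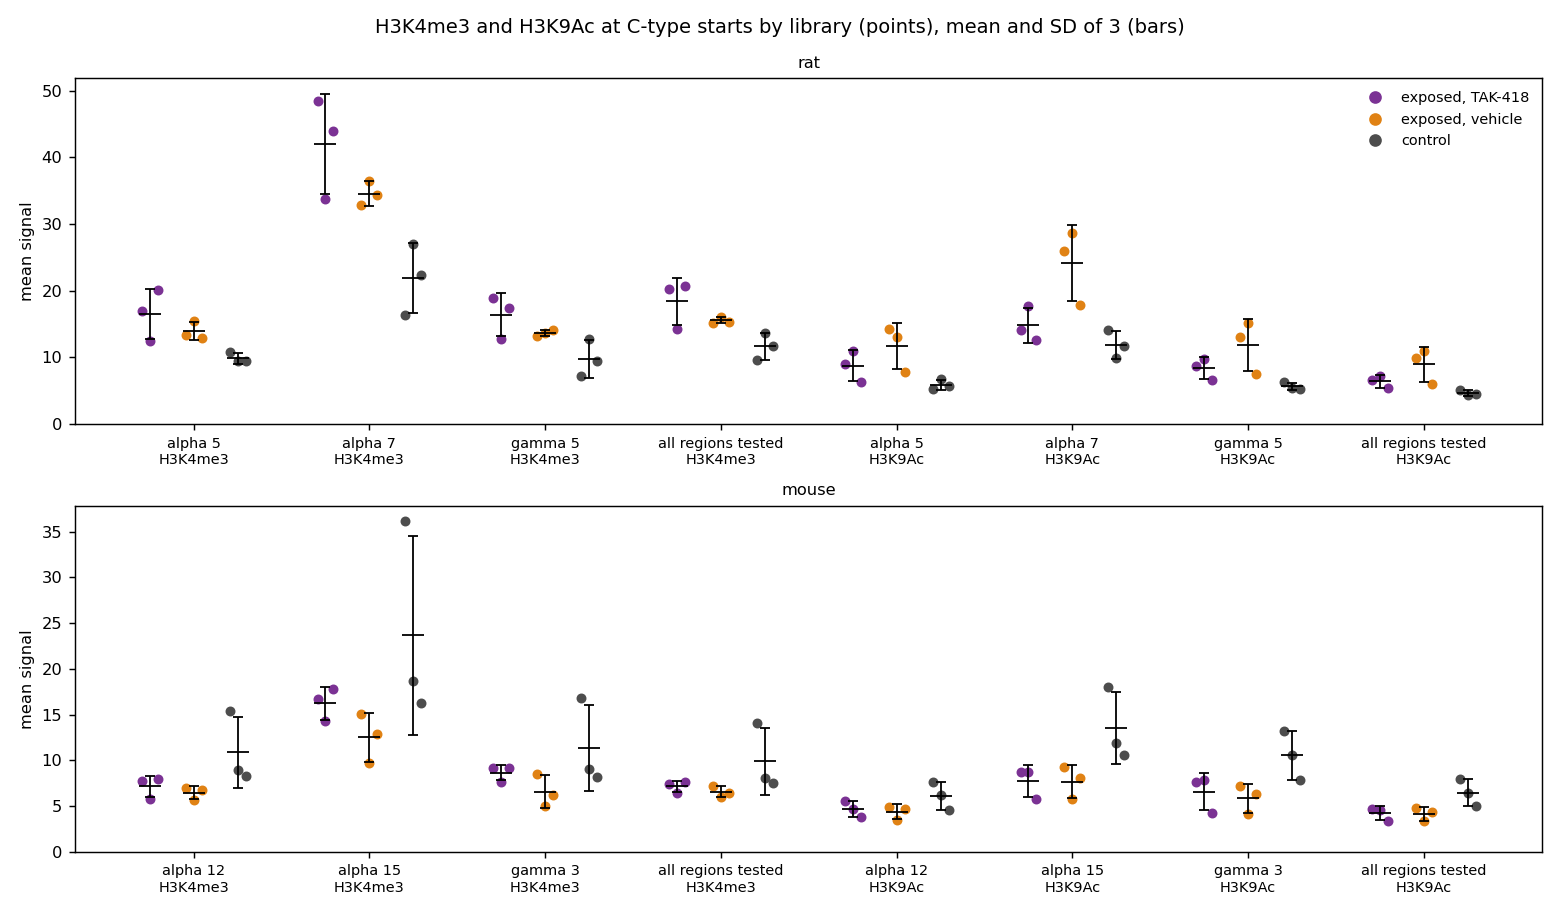
H3K4me3 and H3K9Ac mean signal (y axis) by library at the C-type regions and as the median of all regions tested; points are libraries in the order TAK-418, vehicle and control, and bars give the mean and SD of 3. At rat Pcdhac2, H3K9Ac is 17.8 to 28.7 in vehicle animals and 9.97 to 14.1 in controls, and the library medians move in the same direction.

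With TAK-418, rat H3K9Ac at Pcdhac2 was lower than with vehicle, by -0.66 on the log2 scale (SE 0.26), and did not pass (adjusted p 0.0665). In VPA TAK-418 against VPA vehicle, 0 of 5 members were called, where 9.58% of all regions were, with 1 member and 6661 regions under an unadjusted p of 0.05. The median change was -0.38 for members and -0.41 for all regions. After median centring Pcdhac2 was called lower (-0.26, SE 0.08, adjusted p 0.0327), 1 member where 17.8% of all regions were called lower. That centred count was 0 without TAK-418 library 1 or 3 or any 1 vehicle library, and 2 without control library 1. As deposited, 5 members were called without vehicle library 3, the lowest of its group.

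Against controls, VPA TAK-418 rats had 0 of 5 H3K9Ac members called (0% of all regions), with 0 members and 3387 regions under an unadjusted p of 0.05. The gamma C-type region had the smallest p, at 0.48 (adjusted p 0.240). After median centring there were 0 calls (0%). Without vehicle library 3, which enters only the estimate of the spread, 2 members were called.

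Rat H3K27me3 showed no called member in any contrast, and 0% of all 15480 regions were called in each, as deposited and after median centring. Unadjusted p under 0.05 was reached by 4 regions in VPA vehicle against control, 2 in VPA TAK-418 against VPA vehicle and 11 in VPA TAK-418 against control, and by 0 members. Pcdhac2 had 4.93, 2.93 and 3.21 in TAK-418 libraries, 2.80, 3.84 and 2.39 in vehicle libraries and 4.12, 5.00 and 2.53 in control libraries. Gamma 1, before the variable gamma starts, had 5.12, 2.32 and 2.37 in TAK-418 libraries, 2.12, 2.92 and 1.73 in vehicle libraries and 2.83, 2.82 and 1.75 in control libraries. The groups overlapped in both regions.

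In mice, H3K9Ac at 2 of the 3 C-type regions, those of Pcdhac2 and the gamma C-type genes, was lower in poly I:C-exposed vehicle animals than in controls. Of 6 member regions tested, 3 fell, these and alpha 16, where 64% of 12747 regions were called lower. The median change was -0.46 for members and -0.53 for all regions. The gamma C-type region (gamma 3) had 7.60, 7.80 and 4.21 in poly I:C TAK-418 libraries, 7.15, 4.11 and 6.26 in poly I:C vehicle libraries and 13.2, 10.6 and 7.83 in control libraries. Neither exposed group overlapped the controls. The change in vehicle animals against controls was -0.75 (SE 0.26, adjusted p 0.0320), at percentile 2.47 of the changes of all regions.

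Pcdhac2 (alpha 15) had 8.75, 8.70 and 5.72 in TAK-418 libraries, 9.21, 5.73 and 8.08 in vehicle libraries and 18.0, 11.9 and 10.6 in control libraries, again with both exposed groups below every control. Its change in vehicle animals against controls was -0.73 (SE 0.27, adjusted p 0.0320). Alpha 16, past the start of Pcdhac2, had 2.90, 3.19 and 2.26 in TAK-418 libraries, 3.56, 2.19 and 2.60 in vehicle libraries and 4.80, 5.41 and 3.17 in control libraries, with overlap of both exposed groups and the controls and a vehicle change against controls of -0.52 (SE 0.20, adjusted p 0.0321). Pcdhac1 (alpha 12) had 5.54, 4.66 and 3.77 in TAK-418 libraries, 4.94, 3.46 and 4.72 in vehicle libraries and 7.60, 6.19 and 4.52 in control libraries, which overlapped, and its vehicle change against controls of -0.39 did not pass (adjusted p 0.104).

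Library medians of mouse H3K9Ac were 4.71, 4.57 and 3.38 in TAK-418 animals, 4.77, 3.31 and 4.32 in vehicle animals and 7.91, 6.43 and 5.04 in controls. Medians of both exposed groups lay below those of the controls. After median centring 0 members were called (0% of all regions), and alpha 16 changed sign to 0.01. The count of 3 was 0 without TAK-418 library 2, vehicle library 2 or 3, or control library 1 or 2, and 5 without control library 3.

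In poly I:C TAK-418 against control mice, 0 of 6 H3K9Ac members were called (0% of all regions), although 4 members and 9487 regions had an unadjusted p under 0.05. Pcdhac2 had the smallest p, at -0.72 (SE 0.27, adjusted p 0.0559). Without vehicle library 2 the count was 4, and without control library 3 it was 6. In poly I:C TAK-418 against poly I:C vehicle, 0 of 6 were called (0%), with 0 members and 5 regions under an unadjusted p of 0.05 and a median change of 0.01 for members and 0.04 for all regions. Median centring left 0 calls in each (0%).

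Mouse H3K4me3 gave no call among 9 members in any contrast. In poly I:C vehicle against control 0% of 12439 regions were called, and 5 members and 4874 regions had an unadjusted p under 0.05. Pcdhac2 had 16.7, 14.3 and 17.8 in TAK-418 libraries, 15.0, 9.70 and 12.8 in vehicle libraries and 36.1, 18.6 and 16.2 in control libraries. Vehicle libraries all lay below the controls, TAK-418 libraries overlapped them, and control library 1 stood far above the rest. The vehicle change against controls was -0.80 (SE 0.31, adjusted p 0.127). Without control library 3, 6 members were called in this contrast.

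Control library 1 was high throughout, with a median H3K4me3 over all regions tested of 14.1, against 6.01 to 8.08 in the other 8 libraries. Pcdhac1 had 7.73, 5.77 and 7.92 in TAK-418 libraries, 6.98, 5.63 and 6.75 in vehicle libraries and 15.3, 8.97 and 8.31 in control libraries, and both exposed groups lay below the controls. At the gamma C-type genes H3K4me3 was 9.15, 7.67 and 9.14 in TAK-418 libraries, 8.50, 4.96 and 6.22 in vehicle libraries and 16.8, 9.01 and 8.20 in control libraries, and both exposed groups overlapped the controls. In poly I:C TAK-418 against control 0 members were called, where 0.00804% of all regions were, and in poly I:C TAK-418 against poly I:C vehicle 0 members (0% of all regions), with 1 and 0 members, and 761 and 94 regions, under an unadjusted p of 0.05. After median centring 0 members were called in the 3 contrasts, where 0%, 0.281% and 0.00804% of all regions were called in vehicle against control, TAK-418 against vehicle and TAK-418 against control.

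Mouse H3K9me3 had no called member in any contrast, and 0% of 17543 regions were called in each, as deposited and after median centring. Gamma 2, over the variable gamma genes, had 11.3, 2.67 and 8.94 in TAK-418 libraries, 3.12, 2.89 and 14.9 in vehicle libraries and 18.2, 6.88 and 5.35 in control libraries. Beta 7 had 7.54, 2.03 and 5.73 in TAK-418 libraries, 2.34, 2.13 and 8.44 in vehicle libraries and 12.4, 4.96 and 3.79 in control libraries. The 3 libraries with few called intervals, TAK-418 library 2 and vehicle libraries 1 and 2, were the lowest in both regions.

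Within each mouse group H3K9me3 varied widely. Alpha 6, the highest alpha region, had 6.95, 1.99 and 5.47 in TAK-418 libraries, 2.30, 2.35 and 9.02 in vehicle libraries and 11.0, 4.85 and 3.93 in control libraries. The smallest p in vehicle against control was that of beta 1 (-0.72, SE 0.59, adjusted p 0.492). The library median over the regions tested was 3.81, 1.47 and 3.08 in TAK-418 libraries, 1.69, 1.53 and 3.46 in vehicle libraries and 5.83, 2.73 and 2.28 in control libraries. Median changes of members and of all regions were -0.57 and -0.49 in vehicle against control, 0.23 and 0.23 in TAK-418 against vehicle and -0.36 and -0.26 in TAK-418 against control, and an unadjusted p under 0.05 was reached by 26, 2 and 0 regions and by 0 members.

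The C-type regions were low in mouse H3K9me3 in every library. At the gamma C-type genes it was 1.81, 1.49 and 1.65 in TAK-418 libraries, 1.83, 1.71 and 1.91 in vehicle libraries and 2.17, 1.96 and 1.86 in control libraries. Pcdhac2 had 1.81, 1.53 and 1.28 in TAK-418 libraries, 1.64, 1.38 and 2.48 in vehicle libraries and 2.11, 1.85 and 1.92 in control libraries. In both regions the TAK-418 libraries lay below the controls, the vehicle libraries overlapped them, and both had intervals in too few libraries to be tested.

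For mouse H3K27me3 only gamma 1, which holds the start of Pcdhga1 and also lists Slc25a2 and Taf7, passed the filter. It had 2.35, 2.65 and 2.83 in TAK-418 libraries, 5.70, 4.29 and 2.06 in vehicle libraries and 2.99, 3.79 and 3.71 in control libraries. All TAK-418 libraries lay below the controls, and vehicle libraries spanned both groups. It was called in 0 of 3 contrasts, where 0% of 9238 regions were called as deposited and after median centring, and its change was -0.40 in TAK-418 against vehicle (adjusted p 0.321), -0.32 in TAK-418 against control (adjusted p 0.401) and 0.09 in vehicle against control. It reached an unadjusted p under 0.05 in 0 contrasts, while 26, 8 and 0 of all regions tested reached it in these contrasts, in the same order. Without vehicle library 3 gamma 1 was called in TAK-418 against vehicle.

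**Figure D5:**
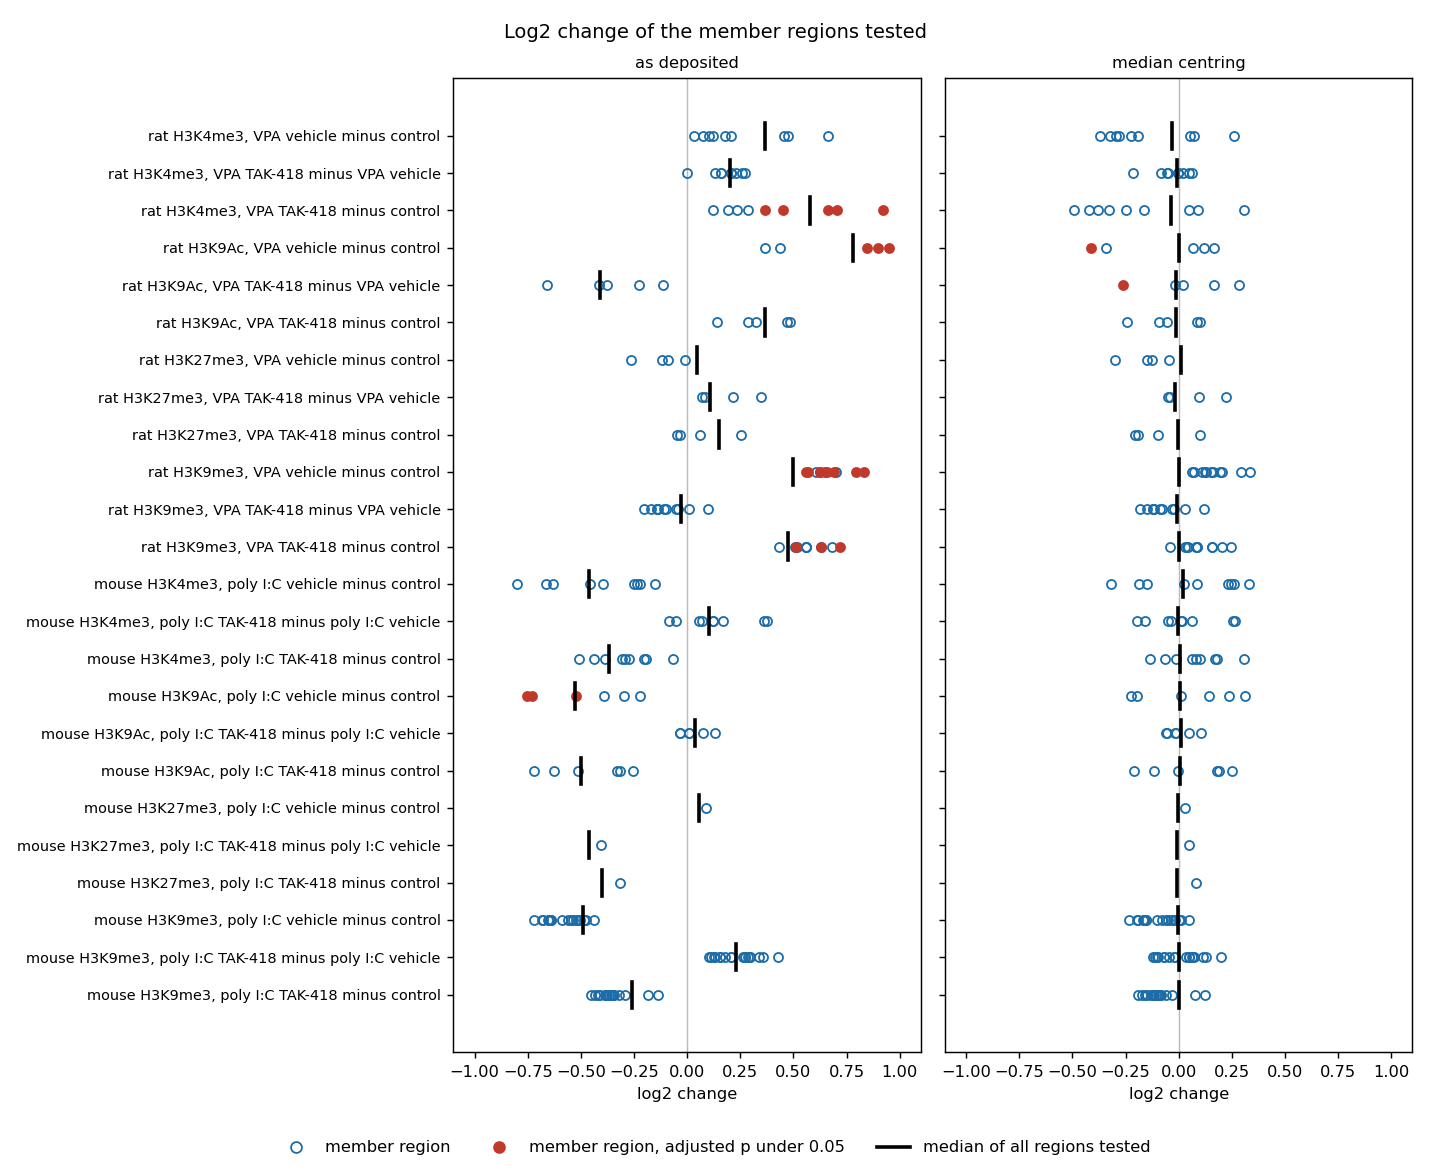
Log2 change (x axis) of each member region tested, by mark and contrast (y axis), as deposited and after median centring; filled points have an adjusted p under 0.05 and black lines are the median of all regions tested. As deposited the members lie on both sides of the median of all regions tested, up to 0.95 at rat Pcdhac2 in H3K9Ac (vehicle minus control), and after centring only 1 member is called in each of 2 rat H3K9Ac contrasts.

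Genes known to act on the clusters or with their proteins, and neighbours on the chromosome, were read in the same fits. Each gene was read at the region listing it with the highest mean signal over the 9 libraries of the mark. The shares over all regions, here and below, also include weaker regions and regions listing no gene. A count of genes beside such a share is therefore not a like comparison. Among 8 architecture genes tested for rat H3K4me3, which include Ctcf and the cohesin subunits that loop enhancers to protocadherin promoters, 5 rose in VPA TAK-418 against control, where 72.8% of all regions did. Of the silencing and DNA methylation genes 9 of 10 rose, of the signalling and processing genes, such as Fyn and Ptk2, 7 of 9, and of the chromosome neighbours 11 of 13, in 6 regions. Dnmt3b, the enzyme that methylates variable promoters in mouse embryos, averaged 19.0 in TAK-418 libraries, 15.5 in vehicle libraries and 9.03 in control libraries, a TAK-418 change against controls of 1.08 (SE 0.22, adjusted p 1.03e-04). Kdm1a itself changed by 0.74 (adjusted p 0.00495). Median changes were 0.65 for architecture, 0.74 for silencing, 0.54 for signalling and 0.61 for neighbour genes, beside 0.58 for all regions, and after median centring 0 genes of the 4 lists were called.

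For rat H3K9Ac in VPA vehicle against control, 8 of 8 architecture genes, 10 of 10 silencing genes, 9 of 9 signalling genes and 11 of 13 neighbours rose, where 90.8% of all regions did. Median changes were 1.04, 1.00, 0.95 and 0.83 in that order, beside 0.78 for all regions, and after median centring 3, 4, 1 and 1 genes were called higher, where 11.5% of all regions were. Rad21, a cohesin subunit, averaged 9.08 in TAK-418 libraries, 18.7 in vehicle libraries and 7.78 in control libraries, with a vehicle change against controls of 1.15 (adjusted p 2.84e-04). In VPA TAK-418 against VPA vehicle 5, 3, 3 and 0 of the same genes fell, where 9.58% of all regions were called in either direction, among them Rad21 (-0.96, adjusted p 0.0135) and the cohesin subunit Stag2 (-0.98, adjusted p 0.0134). Median changes there were -0.81, -0.62, -0.60 and -0.41, beside -0.41 for all regions, and after median centring 6, 4, 5 and 3 genes were called lower, where 17.8% of all regions were. For mouse H3K9Ac in poly I:C vehicle against control, 6 of 9, 8 of 11, 6 of 11 and 9 of 13 fell, where 64% of all regions did, with Dnmt3a at -0.76 (adjusted p 0.0320) and the demethylating enzyme Tet3 at -0.72 (adjusted p 0.0320), and after median centring 0 were called. For rat H3K9me3, 0 of 1, 3 of 6, 1 of 7 and 3 of 3 rose in vehicle against control, where 56.2% of all regions did, and 0 of 1, 1 of 6, 3 of 7 and 1 of 3 in TAK-418 against control, where 39.5% did, and after centring 0. In rat H3K4me3 vehicle against control 2, 1, 0 and 0 rose, where 1.64% of all regions were called. No gene of these lists was called in the other contrasts of both species.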

How the data were processed

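ChIP-seq of 4 marks was measured in 72 libraries from flash-frozen cortex; 2 input samples were not analysed here. Per the labels' protocols, tissue was fixed in 1% formaldehyde and 30 ug of chromatin was used per immunoprecipitation. The submitters' processing notes name BWA 0.7.12 and the builds rn5 (rat) and mm10 (mouse). The sources used here give no peak caller, bin width or scaling of the libraries. The deposited values were the mean signal per merged region and library, a signal of 0 or at least 1 made by the authors, and every library column was matched to a sample. The members and gene lists were chosen with earlier results of these data known.

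Tests used limma 3.58.1 in R 4.3.3 (mean-dependent prior, robust) on log2(mean signal + 1), 1 model being fitted to the 9 libraries of each mark and species, for regions with an interval in at least 3 libraries, and Benjamini-Hochberg adjustment at 0.05; the pseudocount understates changes of weak regions. The procedure was tested on simulated data. Percentiles are ranks among all regions of a species. Alternatives were median centring, quantile normalization, a pseudocount of 0.5, no filter, an interval in at least 6 libraries, the highest signal, only the 6 libraries compared, a replicate block and each library left out; centring with a library left out, and control levels with a library left out, were added after seeing the data. Named regions were the 3 largest called changes per direction and comparison, as deposited and centred, or else the smallest p, the C-type regions, and the highest and lowest control region per cluster and mark.

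Libraries of equal number deviated together (every correlation over 0.1) only in mouse H3K27me3 TAK-418 against control (0.33, 0.11 and 0.16), where the block changed no call.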

Additional observations from a re-analysis of the deposited data

Results flagged for a closer look

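Each of 36 comparisons between the models took a C-type region, a mark and a contrast, including TAK-418 against vehicle. In 7 of them, all against controls, every library of the exposed group compared lay above all controls in rat and below all controls in mouse. Only the 2 of H3K9Ac in vehicle against control passed the limma test in both species. The exposures and tables differ, the difference between species was not tested, and the medians of all regions tested differed in the same direction. The share of all regions with such non-overlap was not counted. H3K9Ac library medians showed it too, at 6.02 to 11.0 in rat vehicle libraries against 4.32 to 5.13 in controls. In mouse they were 3.31 to 4.77 in vehicle libraries against 5.04 to 7.91 in controls. In H3K9Ac, vehicle against control, the rat minus mouse difference was 1.68 at Pcdhac2 (0.95 in rat and -0.73 in mouse) and 1.65 at the gamma C-type genes (0.90 and -0.75), beside medians of all regions of 0.78 and -0.53. In H3K9Ac, TAK-418 against control, it was 1.11 at the gamma C-type genes (0.48 and -0.63), beside 0.37 and -0.50, and passed in neither (adjusted p 0.240 and 0.0559). In H3K4me3, vehicle against control, it was 1.46 at Pcdhac2 (0.66 and -0.80) and 1.09 at Pcdhac1 (0.46 and -0.63), beside 0.37 and -0.46, and neither region passed in either species (adjusted p 0.0878 and 0.135 in rat, 0.127 for both in mouse). In H3K4me3, TAK-418 against control, it was 1.17 at Pcdhac1 (0.66 and -0.51), beside 0.58 and -0.37, and passed in rat (adjusted p 0.00980) but not in mouse (0.296). In H3K9me3, TAK-418 against control, it was 0.40 at the gamma C-type genes (0.22 and -0.18), which had too few called intervals to be tested, beside 0.48 and -0.26.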

How the results depend on the processing

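Signal has no counts behind it, so precision rests on 3 libraries a group and differences below the spread of libraries were not detectable. A pseudocount of 0.5 and an interval in at least 6 libraries kept all 24 counts of called members within 1.5 times; the other settings left 18 to 22 of them there, and the cause of the rest was not tested. Counts as deposited come first below.

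Rat H3K4me3, TAK-418 against control, 5: 0 after median centring, quantile normalization or no filter, 3 on the highest signal. Rat H3K9Ac, vehicle against control, 3: 1 after centring and 0 after quantile normalization. Rat H3K9Ac, TAK-418 against vehicle, 0: 1 after centring and 2 on the highest signal. Rat H3K9Ac, TAK-418 against control, 0: 2 with only the 6 libraries compared. Rat H3K9me3, vehicle against control, 8: 0 after centring, quantile normalization or on the highest signal, 1 with no filter. Rat H3K9me3, TAK-418 against control, 3: 0 after centring, quantile normalization or with only the 6 libraries compared, 1 with no filter or on the highest signal. Mouse H3K9Ac, vehicle against control, 3: 0 after centring, quantile normalization, no filter or on the highest signal.

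With the replicate number as a block, counts became 0 in both rat H3K9me3 contrasts with controls, 1 in rat H3K9Ac TAK-418 against vehicle (0 without the block) and 4 in mouse H3K9Ac TAK-418 against control (0 without it). The other 20 counts stayed within 1.5 times. Pairing was not borne out in those 4 contrasts, where the samples share a number only.

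With 1 library left out, counts ranged from 1 to 6 in rat H3K4me3 TAK-418 against control, 0 to 2 in vehicle against control, 3 to 5 in rat H3K9Ac vehicle against control, 0 to 5 in TAK-418 against vehicle and 0 to 2 in TAK-418 against control. They ranged from 0 to 11 in rat H3K9me3 vehicle against control, 0 to 5 in TAK-418 against control, 0 to 6 in mouse H3K4me3 vehicle against control, 0 to 5 in mouse H3K9Ac vehicle against control, 0 to 6 in TAK-418 against control and 0 to 1 in mouse H3K27me3 TAK-418 against vehicle. The other 13 counts stayed at 0.

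Signs turned in 7 named regions and comparisons between the values as deposited and centred. Of those named for their centred values, rat alpha 9 in H3K9Ac was 0.37 as deposited and -0.41 centred in vehicle against control, and 0.14 and -0.24 in TAK-418 against control; mouse H3K9Ac was -0.22 and 0.31 at gamma 1 in vehicle against control, and -0.32 and 0.19 at alpha 12 in TAK-418 against control. Those named as deposited follow. After quantile normalization Pcdhac2 in rat H3K9Ac became -0.00079 in vehicle against control and 0.0081 in TAK-418 against vehicle, and gamma 3 in rat H3K9me3 vehicle against control -0.033. Centring gave 0.010 for mouse alpha 16 in H3K9Ac vehicle against control. Mouse gamma 1 in H3K27me3 became 0.050 (centring) and 0.016 (quantile) in TAK-418 against vehicle and 0.080 and 0.029 in TAK-418 against control. With 1 library left out, it ranged from -0.16 (without vehicle library 1) to 0.41 in vehicle against control, rat gamma 1 in H3K27me3 TAK-418 against control from -0.035 (without TAK-418 library 1) to 0.41, and mouse gamma 3 in H3K9Ac TAK-418 against vehicle from -0.068 (without vehicle library 2) to 0.37, with -0.0028 without TAK-418 library 2 and -0.013 on the highest signal.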

Other observations

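A region that lists no gene lies between the alpha and beta clusters in both species. Its H3K4me3 lay within the range of the C-type regions. Its H3K9Ac, H3K9me3 and H3K27me3 (1.31 in control rats and 1.65 in control mice) lay below the ranges of the C-type regions. In control rats it spanned chromosome 18, 29957400 to 29961399 (rn5, 3999 bp) and had H3K4me3 of 12.2 (percentile 90.7), H3K9Ac of 4.86 and H3K9me3 of 1.08. In control mice it spanned 37215200 to 37219199 (mm10, 3999 bp) and had 11.8 (percentile 91.9), 5.64 and 1.55.

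Rat alpha 4 and alpha 6, short regions between the alpha starts, had H3K9me3 intervals in 2 libraries each and were not tested. Alpha 4 had 2.60, 2.79 and 2.35 in VPA TAK-418 libraries, 2.85, 4.62 and 3.97 in VPA vehicle libraries and 1.19, 1 and 1.17 in control libraries. Alpha 6 had 3.68, 3.23 and 2.68 in VPA TAK-418 libraries, 4.48, 4.10 and 2.86 in VPA vehicle libraries and 1.33, 1.63 and 2.49 in control libraries. In both regions every exposed library exceeded every control. So did the library medians of all regions tested, at 2.97 to 4.83 in exposed libraries and 2.08 to 2.40 in controls. The share of all regions with such non-overlap was not counted, and the control values of alpha 4 lie near the lowest nonzero signal of 1.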
